A study of Mus musculus with 139 samples.

Results

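The lung libraries of a mouse small RNA atlas were compared with the libraries of 9 other organs, to ask which small RNAs distinguish lung. All columns of the count table whose name begins with Lung were taken, which gave 13 libraries among 130 compared. The other 117 came from brain (14), heart (13), muscle (14), liver (13), kidney (14), pancreas (11), intestine (12), spleen (14) and bone marrow (12). The series lists 139 samples. Testis and the library labelled Pancreas 11 were left out of the comparison by rule. All groups carry the same labels apart from organ: WT C57BL/6J mice, an inbred laboratory strain, 3 months old, with no treatment named. Replicate numbers were read as animals, so 1 mouse gave a library to several organs. The lung libraries came from animals 1 to 9 (female by the column names) and 11 to 14 (male).

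The library pools named in the labels divide the samples further. Pool N467 held the lung, liver, kidney, pancreas and spleen libraries of animals 1 to 10, and pool N541 held the libraries of animals 11 to 14. Brain, heart, muscle, intestine and bone marrow of animals 1 to 10 were in pool N469. Within lung, 9 libraries were of pool N467 and 4 of pool N541, so pool, sex and animal set are the same split and cannot be told apart. Lung libraries held between 4809491 and 33186859 counts (median 12445057), and all 4 lung libraries of pool N541 were deeper than the 9 of pool N467. The other libraries held 13795 to 27644673 counts, and pancreas was the shallowest organ with at most 964665. Each lung library was closest to another lung library (Spearman rho across genes 0.871 to 0.894, a description, since genes are not independent replicates). The table holds small RNA genes only, so protein-coding lung markers were not measured.

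Lung is a mixed tissue. Multiciliated cells line the conducting airways, flat and secretory epithelial cells line the alveoli, and a dense capillary bed, smooth muscle, fibroblasts and resident leukocytes make up the rest. A microRNA is cut from a hairpin transcript and directs Argonaute proteins to messenger RNAs, mainly through its seed, bases 2 to 8 from the 5′ end, so microRNAs with 1 seed can share targets. The Mir34b, Mir34c and Mir449 genes are known from multiciliated cells, where loss of these genes together impairs the formation of motile cilia. Levels below are of whole tissue, so more cells of a type and more RNA per cell cannot be told apart.

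The mature sequences that the lung results turn on are given first. Those from the Mir34 and Mir449 genes are shown because 3 of these 4 come from genes that were higher in lung than in each other organ, while the fourth, miR-34a-5p, does not. Capitals mark the seed. The sequences are from RefSeq for GRCm38.p6, which held a mature sequence for 159 of the 171 microRNA genes named in the analysis. The counts are per gene, so which arm of a hairpin was read is not known.
miR-34b-5p: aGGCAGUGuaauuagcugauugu
miR-449a-5p: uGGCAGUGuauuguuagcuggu
miR-449c-5p: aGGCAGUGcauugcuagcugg
miR-34a-5p: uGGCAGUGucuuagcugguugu
All 4 carry the same seed.

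The next set comes from the X-linked Mir322 cluster, shown with the mature sequences from other genes that share a seed with a cluster member. miR-351-5p has the seed of miR-125a-5p, and miR-322-5p that of miR-195a-5p and miR-16-5p.
miR-351-5p: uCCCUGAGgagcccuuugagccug
miR-125a-5p: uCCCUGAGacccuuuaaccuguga
miR-322-5p: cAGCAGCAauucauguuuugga
miR-195a-5p: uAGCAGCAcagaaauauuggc
miR-16-5p: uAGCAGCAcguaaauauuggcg
miR-503-5p: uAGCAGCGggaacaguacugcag
miR-542-3p: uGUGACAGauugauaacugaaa
miR-450b-5p: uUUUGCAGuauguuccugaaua

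The pair below is shown because the genes differed in direction between lung and the other organs although the mature forms are nearly identical. They differ by U12A, counted from the 5′ end with the miR-10a-5p base first.
miR-10a-5p: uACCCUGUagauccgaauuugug
miR-10b-5p: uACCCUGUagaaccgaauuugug

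The epithelial microRNAs fall into a pair of seed groups. miR-200b-3p, miR-200c-3p and miR-429-3p share the first, and miR-200a-3p and miR-141-3p the other.
miR-200b-3p: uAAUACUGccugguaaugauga
miR-200c-3p: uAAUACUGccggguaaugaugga
miR-429-3p: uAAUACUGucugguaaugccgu
miR-200a-3p: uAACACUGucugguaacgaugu
miR-141-3p: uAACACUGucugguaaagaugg

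A last set shows single microRNAs named below whose seeds no other sequence printed here shares.
miR-126a-3p: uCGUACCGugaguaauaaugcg
miR-92b-3p: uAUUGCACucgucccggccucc
miR-1298-5p: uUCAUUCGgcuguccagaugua
miR-1941-5p: aGGGAGAUgcugguacagaggcuu
miR-5114: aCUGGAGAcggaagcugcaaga

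Of 1063 genes tested, 220 were higher in lung than the mean of the 9 other organs (20.7%) and 138 were lower (13%). The test was edgeR's quasi-likelihood test with organ and pool as terms. Lung shares only pool N541 with brain, heart, muscle, intestine and bone marrow. It is therefore linked to these organs through that pool alone, on the assumption that pool effects are the same in every organ. The tests against single organs rest on the same assumption. The difference of lung from liver, kidney, pancreas and spleen was not the same in pools N467 and N541 for 144 of 1065 genes. The mean over organs was taken on the log2 scale. A gene called higher can therefore lie below single organs and below the ordinary mean of their levels. A gene counted as called when its p, adjusted by Benjamini-Hochberg over all genes, was under 0.05 and its log2 fold change was 1 or more in size. The p-values measure the spread between these animals' libraries. Higher calls were 61.5% of all calls with the TMM scaling used here, 71.9% with DESeq2's size factors and 49.3% with unscaled library totals. The median log2 fold change of all genes was -0.13, 0.04 and -0.28 under these 3 scalings, so the balance of higher and lower depends on the scaling. MicroRNA genes made up most of the higher calls, with 162 of 476 tested higher (34%) and 54 lower (11.3%). Their median log2 fold change was 0.41. Transfer RNA genes had more lower than higher calls, with 58 lower and 31 higher of 275, and small nucleolar RNA (snoRNA) genes had 21 higher and 14 lower of 219. Within pool N467, lung was compared with liver, kidney, pancreas and spleen of animals 1 to 10, and 213 of 906 genes were higher (23.5%) and 148 lower (16.3%). Both comparisons use the same 9 lung libraries, so they are not independent.

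Genes higher in lung than in every other organ were found by testing lung against each of the 9 organs and keeping the weakest of the 9 results, with the smallest difference at least 1 on the log2 scale. There were 9 such genes (0.847%): Mir449a, Mir449c, Mir34c, Mir34b, Mir351, Mir542, Mir1941, Mir5114 and the snoRNA Gm25852. For 4 of them, every lung library was above every other library (0.376%), namely Mir449a, Mir449c, Mir351 and Gm25852. No gene was called lower than each other organ (0%). At an unadjusted p below 0.05, edgeR gave 1 gene below each organ, Mir139, with no minimum size. DESeq2's Wald test called 0 genes and gave 2 at an unadjusted p below 0.05.

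**Figure D1:**
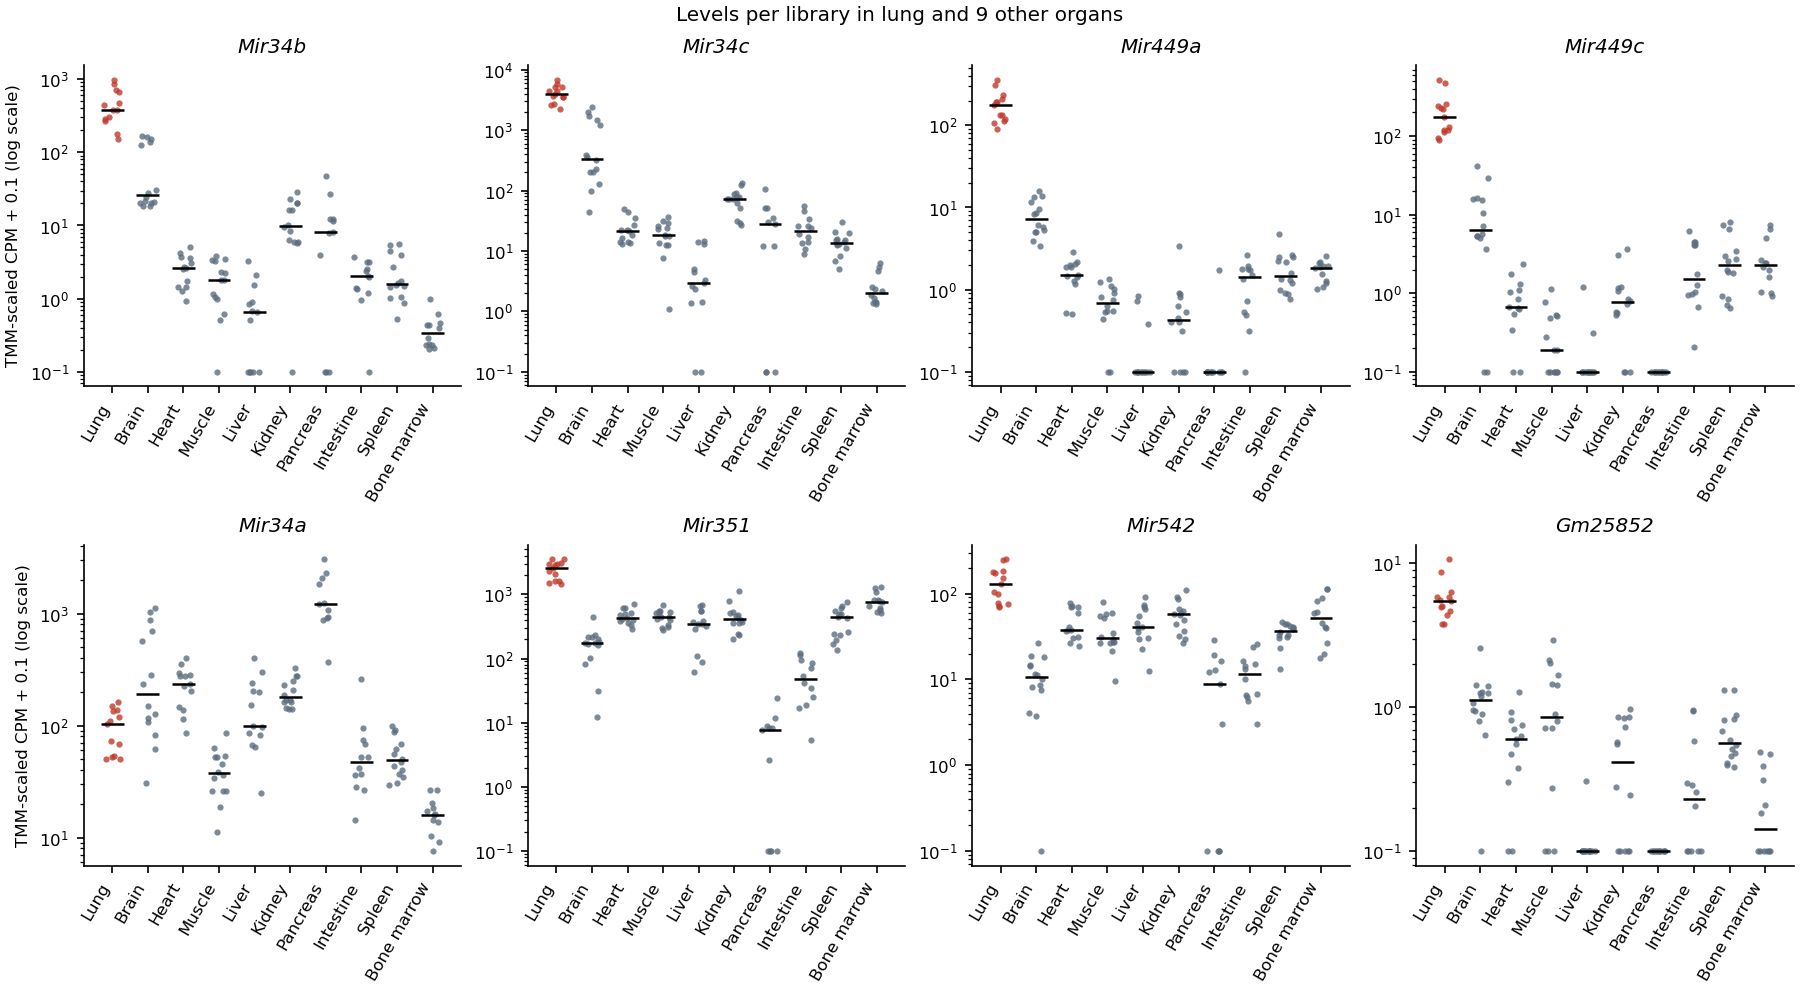
Levels of 8 small RNA genes by organ, as TMM-scaled CPM plus 0.1 on a log axis, with 1 dot per library, a line at each organ's median and lung in red. Lung stands above all other libraries for Mir449a, Mir449c, Mir351 and Gm25852, overlaps a few brain libraries for Mir34b and Mir34c, and lies inside the range of the other organs for Mir34a.

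The 4 tested microRNA genes known from ciliated cells were all called higher in lung, and each was above every other organ. Mir449a lies at chr13:113037534-113037624 and Mir449c at chr13:113035983-113036091, both on the plus strand in an intron of Cdc20b, and the pair spans 1642 bases (GRCm38, GENCODE M21). Levels are given as CPM, each gene's counts scaled to a common library size after TMM. Mir449a was at 89.2 CPM in the lowest lung library, 176 in the median and 358 in the highest, against 0 to 15.6 in the other organs. Every lung library was far above all other libraries, and the highest of these were from brain. Its log2 fold change was 7.54 (SE 0.26, adjusted p = 5.96e-55, edgeR), the smallest difference was 4.64 over brain, and within pool N467 the log2 fold change was 8.22 (adjusted p = 2.74e-30, edgeR). Mir449c was at 89.3, 175 and 520 CPM in lung against 0 to 41.1 elsewhere. Pancreas, with 2862662 counts over all its libraries, held no Mir449c count. Against a floor of 3 counts over that organ, the pooled lung level was at least 159-fold higher. Its smallest difference was 4.46 over brain (adjusted p = 2.64e-09 for lung above each organ, edgeR). Mir449b did not reach the count minimum and was not tested.

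Mir34b and Mir34c span 612 bases on the minus strand of chromosome 9, at chr9:51103562-51103645 and chr9:51103034-51103110, within an intron of Btg4, which is on the opposite strand. Mir34c was at 2215, 4016 and 6788 CPM in the lowest, median and highest lung library and at 0 to 2391 elsewhere. A single other library, from brain, exceeded the lowest lung library. The log2 fold change was 7.88 (SE 0.35, adjusted p = 1.44e-44, edgeR), and the smallest difference was 3.32 over brain. Mir34b was at 152, 383 and 977 CPM in lung and 0 to 165 elsewhere, and 2 other libraries exceeded the lowest lung library. Its log2 fold change was 7.30 (SE 0.34, adjusted p = 1.41e-42, edgeR), with a smallest difference of 3.07 over brain. Within brain, the 10 libraries of pool N469 had a median of 77.9 CPM of Mir34b against 21.3 in the 4 of pool N541. With the libraries of pool N541 alone, 2 of the 9 genes were still called above each organ, Mir449c and Mir34c, at the smaller number of libraries.

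Mir34a shares the seed but lies on chromosome 4 (chr4:150068454-150068555) and did not follow its relatives. This gene, a known target of p53, was at 50.2, 104 and 161 CPM in lung and 7.48 to 3070 elsewhere. Lung lay inside the range of the other organs, below pancreas with its median of 1225 CPM and above bone marrow with 15.95. The log2 fold change was 0.08 (SE 0.30, adjusted p = 0.902, edgeR), which is no call. Within lung, the 9 libraries of pool N467 were at 68.9 to 161 CPM and the 4 of pool N541 at 50.2 to 53.4, without overlap, and with pool N541 alone the log2 fold change was -1.53 and passed the test as lower.

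Mir92b, a relative of the Mir17 to Mir92 group that lies on chromosome 3 (chr3:89227116-89227198), had its highest medians in lung and brain. It was at 1506, 2770 and 5161 CPM in lung, and the median was 1874 in brain and at most 48.0 in each of the other organs. The lowest brain library of pool N541 was at 36.6 CPM, inside the kidney range of pool N467 (30.8 to 90.6). Lung and brain overlapped, and the lung median was above the brain median. Its log2 fold change was 6.86 (SE 0.31, adjusted p = 2.11e-43, edgeR). Mir1298 and Mir1264, both in introns of the serotonin receptor gene Htr2c on the X chromosome (chrX:147064905-147065002 and chrX:147010601-147010686), were also counted in lung and brain and hardly elsewhere. Mir1298 was at 33.9, 95.4 and 170 CPM in lung and had a median of 184 in brain, and no library of another organ exceeded 9.23. Mir1264 was at 4.89, 9.46 and 30.7 CPM in lung with a median of 12.8 in brain, and heart, liver, kidney, pancreas and spleen held no count of it. Their fitted log2 fold changes against the 9 organs, 9.78 and 8.18, rest on organs without a count and are no bounds. In brain both ran over the lung range, and the brain mean was the higher, by 1.41 and 0.34 on the log2 scale. Markers of brain were near 0 in lung: the summed level of the 6 genes listed for brain (the Mir9 and Mir124a genes) was 0.885 to 9.74 unscaled CPM in lung and 30600 to 71160 in brain.

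The Mir322 cluster on the minus strand of the X chromosome, 5 measured genes within 6353 bases (chrX:53047997-53054349), was higher in lung throughout. Mir322 and Mir503 are known for slowing the cell cycle, and the human counterpart of Mir322 is called MIR424. All 5 tested members were called higher, with a median log2 fold change of 2.47. The median was -0.13 over all tested genes and 0.41 over microRNA genes. All 5 were also called within pool N467. Of the 7 genes listed for the cluster, Mir450a-1 and Mir450a-2 were not matched in the table.

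Mir351 (chrX:53053255-53053353) was at 1459, 2586 and 3542 CPM in lung and 0 to 1313 elsewhere. No other library reached the lowest lung library, and bone marrow came closest. The log2 fold change was 3.71 (SE 0.24, adjusted p = 7.76e-29, edgeR), and the smallest difference was 1.88 over bone marrow. Mir542 (chrX:53049403-53049487) was at 70.3, 129 and 252 CPM in lung and 0 to 114 elsewhere. Here 12 other libraries were above the lowest lung library, and the smallest difference was 1.26 over kidney (log2 fold change 2.25, SE 0.23, adjusted p = 5.57e-16, edgeR). Its place among the genes above each organ was lost when lung replicate 5, 6, 8, 9, 11, 12 or 13 was left out, although it stayed higher against the mean. Mir503 and Mir450b, with log2 fold changes of 2.47 and 2.74, exceeded all 9 organs in the fit by at least 0.996 and 1.02 but were not called above each. Mir322 itself was higher against the mean (2.21, SE 0.28, adjusted p = 1.64e-11, edgeR), and heart was above lung by 0.50 on the log2 scale.

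The remaining genes above each organ rest on few counts. At such levels a gene can pass the count minimum through the lung libraries alone. The p-values of these genes are therefore descriptions and no independent evidence. The snoRNA Gm25852 (chr6:97547438-97547567, minus strand, in an intron of Frmd4b) had 12, 85 and 139 counts in the lowest, median and highest lung library. That came to 3.67, 5.39 and 10.6 CPM, while no other library exceeded 2.83. Muscle was the nearest organ, 2.94 lower on the log2 scale (adjusted p = 1.94e-06 for lung above each organ, edgeR). Mir1941 (chr15:101369352-101369434, in an intron of the antisense gene Gm35853 and opposite an intron of Krt80) had 9, 35 and 94 counts per lung library, and spleen was nearest at 1.95 (adjusted p = 0.00391, edgeR). Mir5114 (chr19:44303171-44303231, in an exon of Scd2) had 8, 34 and 74 counts, with spleen nearest at 1.38 (adjusted p = 0.0258, edgeR). Both ranges overlapped the other organs, with 8 libraries above the lowest lung value of Mir1941 and 17 above that of Mir5114. Mir5114 and Mir542 were no longer above each organ without the low-count filter, with animals 1 to 10 alone, or without libraries under 100000 counts. Mir1941 and Mir5114 were not with DESeq2's Wald test, and Mir351, Mir542 and Mir5114 were not with microRNA genes only. With unscaled library totals, Mir351, Mir542, Mir1941 and Mir5114 were not above each organ, and the other 5 were.

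MicroRNAs known from blood vessels and connective tissue were higher in lung than the mean of the other organs, but not than each organ. All lists in this text were drawn up by gene name, with earlier results of these data known. Their counts therefore describe the members and test nothing. They are to be read beside the shares called of all tested genes, 20.7% higher and 13% lower, and of microRNA genes, 34% and 11.3%. Within pool N467 the shares of all tested genes were 23.5% and 16.3%. Of 382 microRNA genes tested in both comparisons, 159 were higher and 45 lower there. The 3 tested genes known from smooth muscle, the 4 known from stroma (Mir199a-1, Mir199a-2, Mir199b and Mir214) and the single tested gene known from endothelium, Mir126a, were all called higher. Within pool N467 this held for 2 of 3, 4 of 4 and 1 of 1. The stroma count was 2 of 4 without brain or without bone marrow and 0 of 4 with pool N541 alone.

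Mir126a is encoded in Egfl7, a gene of endothelial cells, at chr2:26591357-26591429. Mir126b overlaps it on the opposite strand, and whether the authors counted by strand is not given in the sources used here. It was at 4874, 10706 and 48179 CPM in lung, and liver and heart libraries reached 56346 and 26639. The log2 fold change was 2.22 (SE 0.28, adjusted p = 9.44e-12, edgeR), 2.28 within pool N467, and heart was the nearest organ at 0.36. The lung values fell into ranges that did not overlap: 24400 to 48180 CPM in animals 1 to 5, 6818 to 15480 in animals 6 to 9, and 4874 to 6598 in animals 11 to 14. Kidney was at 9815 to 14330 CPM in animals 1 to 5 and at 2144 to 5894 in animals 6 to 10, and spleen at 4280 to 7411 and 1131 to 3998. Muscle had the opposite order, with 3575 to 5852 and 9150 to 12810, and so did bone marrow, with 1231 to 2361 and 2456 to 3721. In heart, brain, pancreas, intestine and liver the ranges of animals 1 to 5 and 6 to 10 overlapped. The medians of these organs, except liver, were higher in animals 6 to 10. Lung replicates 1 to 4 carried index numbers 21 to 24 and replicates 5 to 9 carried 44 to 48. With index numbers 1 to 24 alone the log2 fold change in pool N467 was 2.66, and with 25 to 48 alone it was 1.81. What sets these ranges apart was not tested.

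**Figure D2:**
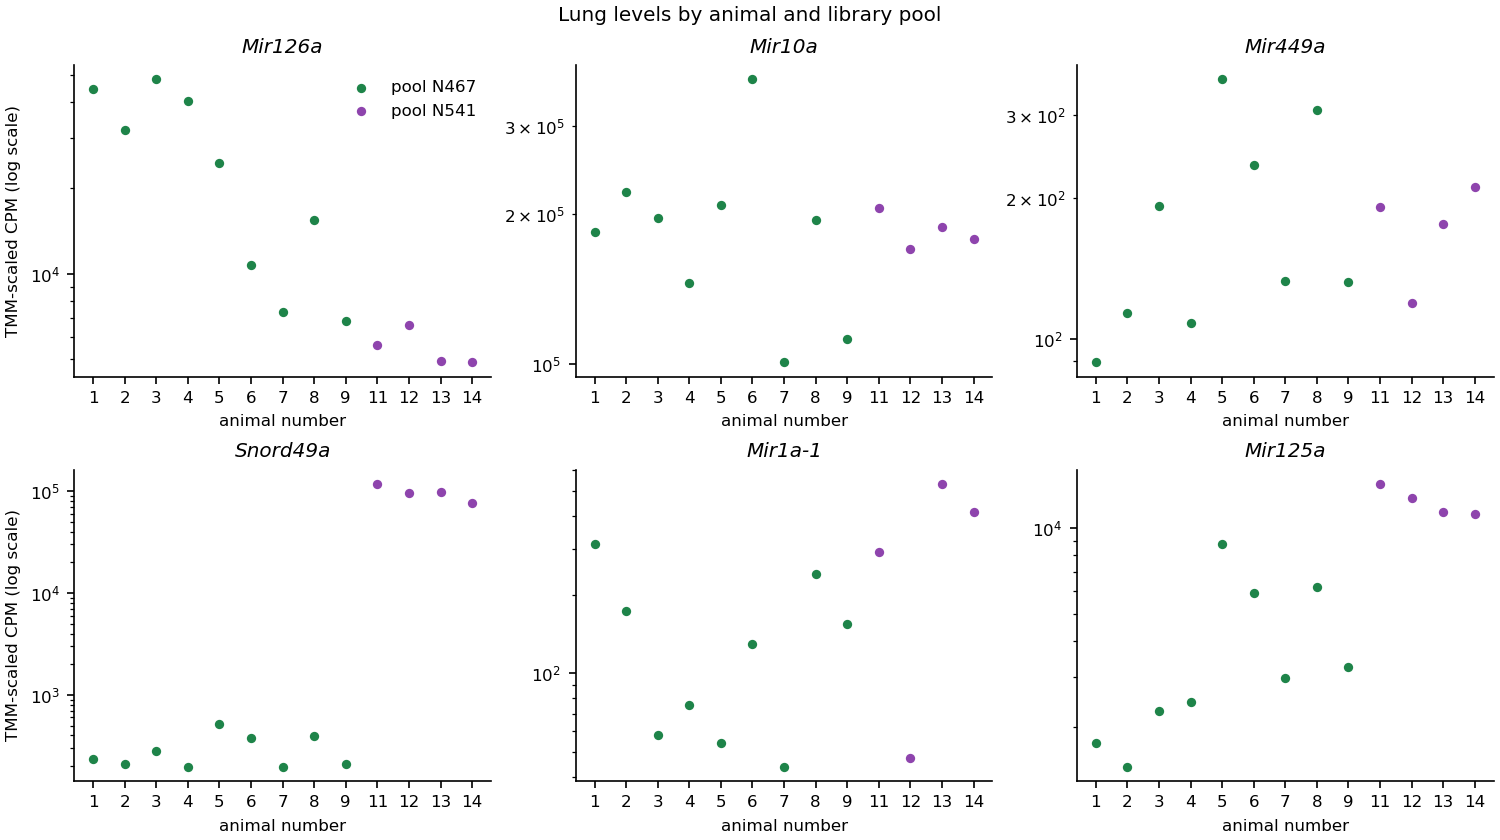
TMM-scaled CPM of 6 genes in each of the 13 lung libraries, by animal number, on log axes, with pool N467 in green and pool N541 in purple. Mir449a overlaps between the pools, Mir126a is highest in animals 1 to 5, and Snord49a stands apart in the 4 libraries of pool N541.

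Among the smooth muscle genes, Mir143 was the third most abundant gene in lung, at 41988, 91992 and 112262 CPM. Intestine was 0.24 above lung on the log2 scale, and the log2 fold change of lung against all 9 organs was 1.75 (SE 0.19, adjusted p = 1.85e-14, edgeR). Mir145a, which lies beside Mir143 and is known with it from smooth muscle, had a log2 fold change of 1.25 (SE 0.21, adjusted p = 2.58e-07, edgeR). Within pool N467 it was 0.88, below the threshold of size. Mir490 was higher against the mean of log2 levels (3.44), with heart above lung by 3.13. All 6 genes of the Mir23, Mir24 and Mir27 clusters, which are abundant in endothelium and connective tissue, were called higher, with a median of 1.47. Without bone marrow 2 of the 6 were, and with pool N541 alone 1 was. Mir24-1 and Mir24-2 differed by 7.06% in total counts, so the 6 are not all separate results.

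Epithelial microRNAs were higher as a group. The Mir200 genes and their relatives hold back the transcription factors Zeb1 and Zeb2, and with them the change from epithelial to mesenchymal form. All 7 genes listed for epithelium were called higher, with a median log2 fold change of 3.55, and 6 of 7 within pool N467, with a median of 2.04. Mir141 was at 3572, 7291 and 18453 CPM in lung (log2 fold change 3.93, SE 0.43, adjusted p = 3.06e-14, edgeR), and pancreas was 0.68 higher. Mir429 was at 224, 275 and 760 CPM (4.29, SE 0.45, adjusted p = 5.05e-15, edgeR), with kidney 0.78 higher. The summed list was at 4311 to 14830 unscaled CPM in lung, 3984 to 11310 in kidney, 6177 to 88740 in pancreas and 851 to 48710 in intestine, and lung overlapped all 3. Brain ran from 39.3 to 22400, so its highest library was above every lung library, while heart was at 93.2 to 289. Mir203, known from keratinocytes, had the smallest change (1.10) and was not called within pool N467 (0.20). Mir205, known from basal epithelial cells, was at 3.71, 12.1 and 21.8 CPM in lung, with a log2 fold change of 2.65 and kidney 1.57 higher. The 3 genes of the Mir183 cluster, known from sensory organs, were called higher in both comparisons, with a median of 2.31, and brain or pancreas was above lung for each.

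Mir375, known from pancreatic islets and other hormone-secreting cells, was higher in lung than the mean of the other organs' log2 levels. It was at 250, 437 and 664 CPM in lung, and the median was 19949 in pancreas, 1559 in intestine and 127 in kidney. Lung came after pancreas and intestine, and all its libraries were above all kidney libraries. The log2 fold change was 4.11 (SE 0.31, adjusted p = 9.47e-24, edgeR), and pancreas exceeded lung by 5.68. The other genes listed for pancreas were at or near 0 in lung: no lung library exceeded 0.114 CPM of Mir216a, 0.067 of Mir216b or 0.306 of Mir217.

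**Figure D3:**
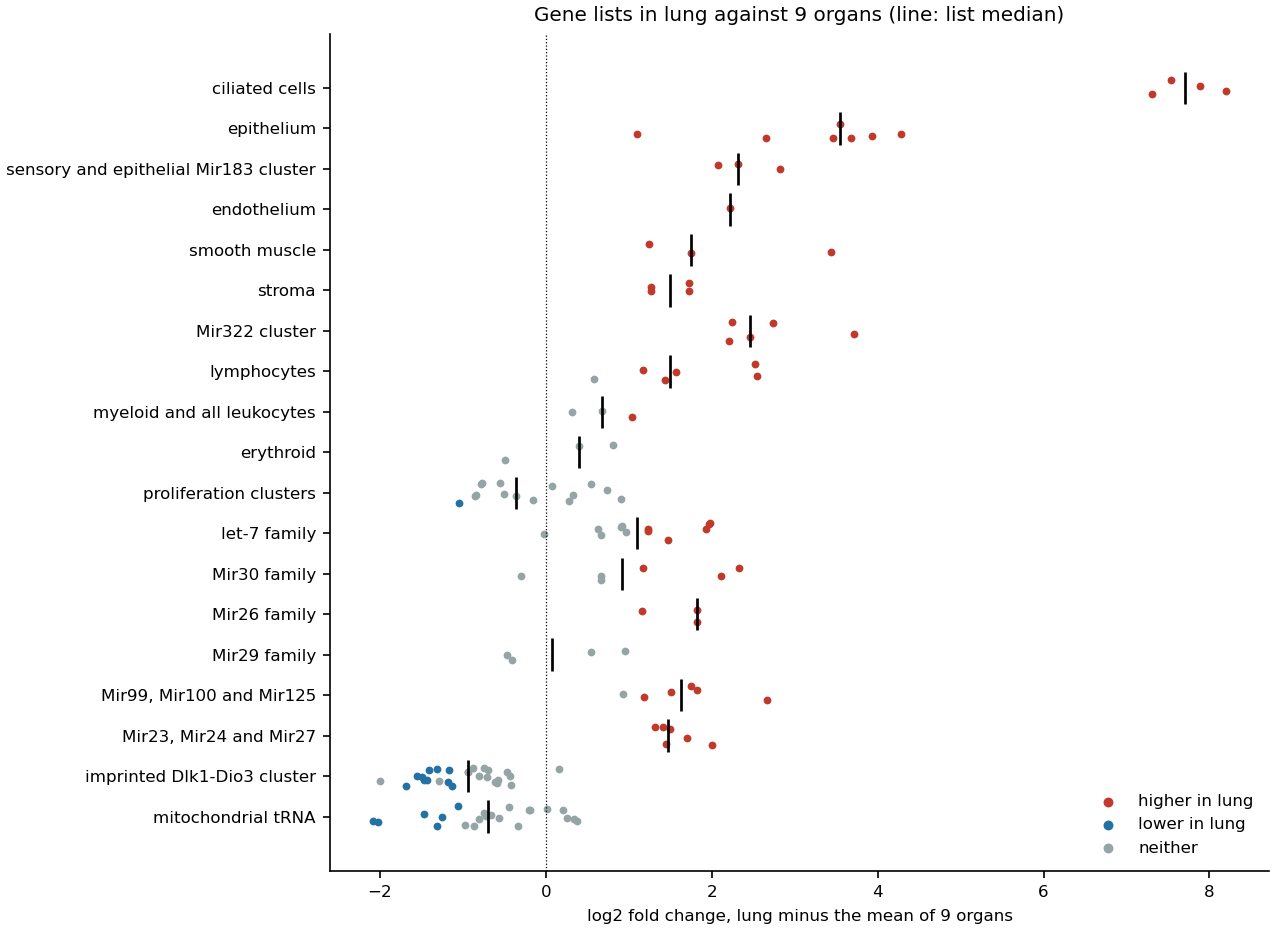
Log2 fold change of lung against the mean of the 9 other organs for each tested gene of 19 lists, coloured by call, with a line at each list's median. The ciliated cell list lies highest at a median of 7.71, the epithelial list follows at 3.55, and the proliferation list sits near -0.36.

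The most abundant gene in lung was Mir10a, encoded among the HoxB genes (chr11:96317165-96317274), with 16.6% of lung counts on average. It was the top gene in 12 of 13 lung libraries, and Mir30a was in the other. Counts here are per gene and not adjusted for length. Mir10a was at 100895, 188058 and 370877 CPM in lung, against medians of 563510 in kidney, 110930 in liver and 804 in brain. Lung was second to kidney and overlapped it. The log2 fold change was 2.48 (SE 0.32, adjusted p = 4.34e-11, edgeR), kidney exceeded lung by 1.58, and within pool N467 the log2 fold change was 1.45. Mir10b, encoded among the HoxD genes (chr2:74726070-74726137, in introns of Hoxd3 and Hoxd4), went the other way. It was at 3325, 6618 and 17349 CPM in lung, against medians of 644130 in kidney, 168540 in muscle and 22270 in heart. The lung median was above those of liver (2636), bone marrow (3874), spleen (5204) and brain (2141). Its log2 fold change was -1.85 (SE 0.48, adjusted p = 0.000842, edgeR), and -1.73 within pool N467. Lung minus organ was -6.49 for kidney and -5.70 for muscle, and 0.85 for liver, 0.68 for bone marrow, 0.22 for spleen and -0.02 for brain, so the organs differ in direction. The mature forms differ at 1 base, so the division of reads between these genes is uncertain.

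Other abundant microRNAs of lung belonged to broadly expressed families. Mir30a and Mir30d took 9.58% and 3.04% of lung counts and had log2 fold changes of 2.11 and 2.32. Kidney was 0.16 above lung for Mir30a, and heart came nearest below it for Mir30d, at 0.65. Of the 6 Mir30 genes 3 were called higher, and Mir30e had a log2 fold change of -0.29. All 3 Mir26 genes were called higher (median 1.82), but the totals of Mir26a-1 and Mir26a-2 differed by 0.03% and the copies cannot be told apart. Of 12 let-7 genes, which encode microRNAs of differentiated cells, 6 were called higher, with a median of 1.10. With DESeq2's size factors 9 were, and with unscaled totals 5. Among all tested microRNA genes 34% were called higher, with a median of 0.41. Mirlet7a-1 and Mirlet7a-2 differed by 2.86% in total counts, and Mirlet7c-1 and Mirlet7c-2 by 2.88%, so these copies are hardly separate results. Mirlet7c-1 and Mirlet7b had the highest values, 1.97 and 1.96, and exceeded all 9 organs in the fit without being called above each. None of the 4 Mir29 genes, known for holding back collagen genes, was called (edgeR). Their median was 0.07, and with DESeq2's size factors 1 was called higher. Within pool N467, 2 of these 4 were called lower, with a median of -0.58. Of the Mir99, Mir100 and Mir125 genes 5 of 6 were called higher, with Mir125a at 2.67 and brain 0.06 above lung.

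MicroRNAs of leukocytes gave a mixed result. Of 6 genes known from lymphocytes 5 were called higher, but 4 of these are Mir181 genes, which brain also expresses strongly and above lung. Mir181a-1 and Mir181a-2 differed by 0.29% in total counts and cannot be told apart. Mir150, known from mature lymphocytes, was at 122, 390 and 795 CPM in lung (1.17, SE 0.29, adjusted p = 0.000541, edgeR), and spleen exceeded lung by 3.48. Mir155, known from activated lymphocytes and macrophages, had a log2 fold change of 0.58 and was not called. Of 3 genes known from myeloid cells or all leukocytes, Mir142 was called higher (1.04), near the threshold, and Mir223, known from neutrophils, was not (0.68, SE 0.24, adjusted p = 0.0156, edgeR). None of the 3 genes known from red blood cells was called by edgeR. Mir144 was at 0.81, Mir451a at 0.40 and Mir486 at -0.49 (adjusted p = 0.0342, 0.398 and 0.248). Of 15 genes of the Mir17 to Mir92 clusters, known from dividing cells, Mir20a was called lower (-1.04), and their median was -0.36. With DESeq2's size factors none was called lower and 1 higher, while within pool N467, 7 of 15 were lower, with a median of -0.98.

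Called genes outside the tRNA class, with a mean of at least 10 CPM in the other organs, were ranked by log2 fold change. Those with the lowest values are known from other organs. The lowest was Mir802, known from liver and pancreas, at 0 to 0.203 CPM in lung and with a median of 1012 in pancreas (log2 fold change -5.89, SE 0.56, adjusted p = 1.96e-17, edgeR). The medians of spleen, heart, muscle and bone marrow were at most 0.106. Next among these genes came Mir124a-1 and Mir137, known from neurons, and Mir216a, known from pancreatic acinar cells, all 3 called lower. No lung library exceeded 0.083 CPM of Mir124a-1, 0.203 of Mir137 or 0.114 of Mir216a. Each of these genes is set against a mean over 9 organs, to which 1 organ with a high level can contribute most. Of 4 genes known from intestine and liver 3 were called lower, and Mir192 was at 435, 824 and 1354 CPM in lung with a log2 fold change of -1.90. Of 26 listed genes of the imprinted Dlk1-Dio3 cluster, 10 were called lower with a median of -0.94. Without brain 1 of 22 tested was, and within pool N467, where brain is absent, 6 of 16 were higher. Of 382 microRNA genes tested in both comparisons, 159 were higher in pool N467, so 6 of 16 is near the general share.

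By edgeR's unadjusted p in the main fit, Mir139 was the gene that came closest to being lower than each organ. DESeq2's Wald test gave Mir139 and Gm23814 at an unadjusted p below 0.05, and 1 of them also met the size threshold. It called neither. With microRNA genes only, edgeR called 1 gene lower than each organ. Mir139 was at 3.07, 13.02 and 24.3 CPM in lung and 0 to 1090 elsewhere. Its log2 fold change was -2.66 (SE 0.32, adjusted p = 3.66e-12, edgeR), and -2.10 within pool N467. All 9 organs were above lung in the fit, with differences of lung minus organ from -4.73 for brain to -0.73 for intestine, which is under the size threshold. It was named after its values were seen.

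MicroRNAs of striated muscle were present in lung at low levels and vary between libraries. Mir1a-1 was at 43.8, 155 and 532 CPM in lung. The median was 9.19 in kidney and 5.39 in spleen in pool N467, and all heart libraries were at 1501 or more. The 9 lung libraries of pool N467 were above all kidney, spleen and liver libraries of that pool and overlapped pancreas. Against all 9 organs, where heart and muscle enter the mean, the log2 fold change was 0.95 (SE 0.47, adjusted p = 0.0911, edgeR), and within pool N467 it was 4.23 (adjusted p = 7.28e-20, edgeR). Of 9 genes on the heart and muscle list, 2 were called higher and 1 lower against the 9 organs, and 6 of 6 tested were higher within pool N467. With DESeq2's size factors 6 of 9 were called higher. Mir1a-1 and Mir1a-2 differed by 0.27% in total counts, and Mir133a-1 and Mir133a-2 by 0.18%. These copies cannot be told apart, so the list holds fewer separate results than genes. Mir208b, encoded in an intron of the beta myosin heavy chain gene, was at 8.05, 18.9 and 93.3 CPM in lung (4.74, SE 0.48, adjusted p = 4.93e-16, edgeR), with heart 1.99 higher. Mir208a, encoded in the alpha myosin heavy chain gene of cardiac muscle, was at 0.536, 3.98 and 21.4 CPM, and spleen, liver and bone marrow held no count of it. Mir206 and Mir499, known from skeletal and from cardiac and slow muscle, were at most 0.394 and 0.669 CPM in lung. The summed list was at 178 to 1785 unscaled CPM in lung and 34130 to 235100 in heart. The source of these counts was not tested.

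**Figure D4:**
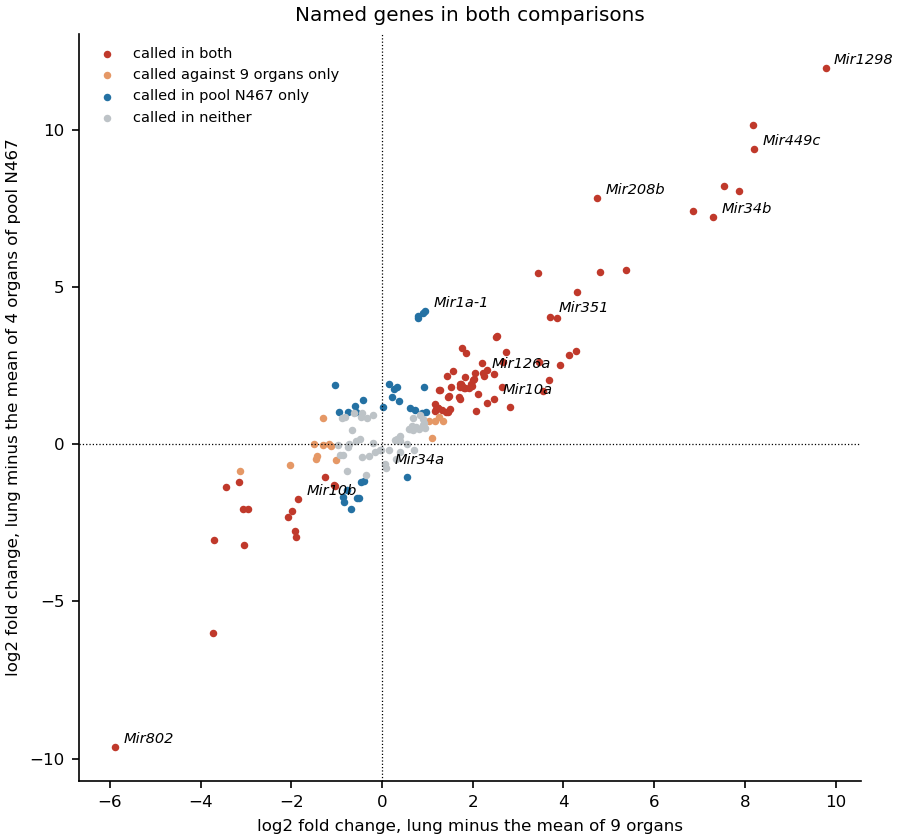
Log2 fold change of lung against the mean of 9 organs (x axis) and against liver, kidney, pancreas and spleen within pool N467 (y axis) for 177 named genes. Points are coloured by whether the gene was called in both, either or neither, both axes share the lung libraries of pool N467, and Mir1a-1 stands at 0.95 on the x axis, which includes heart and muscle, and at 4.23 on the y axis.

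The same 5 organs could be compared within pool N541, where 237 of 645 genes were higher in lung (36.7%) and 61 lower (9.46%). This set has 2 pancreas libraries, and the median log2 fold change over all genes was 1.36. The difference in the lung contrast between the pools was tested directly and called for 144 of 1065 genes (13.5%), 9 higher and 135 lower in pool N467. Without pancreas it was called for 223 genes of 1008, 46 higher and 177 lower, and 131 genes were called both ways. It was not called for Mir34b (1.39, SE 0.68), Mir34c (0.81, SE 0.64) or Mir449a (-2.32, SE 2.58), and these errors are wide. For lung alone, without regard to the other organs, 307 genes differed between the pools. Snord49a, a snoRNA of the C/D box type, was at 198 to 518 CPM in the lung libraries of pool N467 and at 77071 to 118180 in those of pool N541. Spleen and liver also differed by pool for this gene, with medians of 670 and 82300 CPM in spleen and 237 and 15000 in liver. Whether sex, animals or library pool set this difference cannot be told apart.

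The spread of RNA class shares between lung libraries was wide, and whether a class passed depended on the test used. MicroRNA genes took 73.2% ± 14.1 (SD, n = 13) of lung counts, tRNA genes 12.5% ± 14.6, snoRNA genes 12.2% ± 10.6 and mitochondrial tRNA genes 1.76% ± 2.09. The differences from the mean of the other 117 libraries were -3.05, 0.955, 4.48 and -2.15 percentage points. None of the 7 classes passed an unpaired two-sided permutation test with 100000 resamples, with p from 0.102 and adjusted p from 0.39 to 0.857. In an exact sign-flip test over 13 animals, lung was set against the mean of the same animal's other organs. Small Cajal body RNA (scaRNA) was lower in lung than that mean, with a difference of -0.17 percentage points (adjusted p = 0.00513, sign-flip test). The other 6 classes did not pass. Single organs differed in direction. The median scaRNA share was 0.154% in lung, but 0.04% in kidney, 0.063% in intestine and 0.105% in muscle. It was 1.192% in liver, and from 0.169% in heart to 0.378% in brain among the rest. The snoRNA share was 2.83 to 9.90% in the 9 lung libraries of pool N467 and 22.03 to 29.7% in the 4 of pool N541, without overlap. Within pool N467 the lung snoRNA share was 4.02 points below the other organs, so the direction of the pooled difference does not hold there. The tRNA share was highest in lung replicate 9, at 51.7%, and replicate 7, at 34.5%. Of 22 mitochondrial tRNA genes 6 were called lower in lung, with a median log2 fold change of -0.69, and heart had the highest level relative to lung for all 22. Without heart 1 was called lower. Within pool N467, 5 were higher and 3 lower, near the shares of all genes tested there (23.5% and 16.3%). Leaving out the 4 lung libraries of pool N541 and all other animals from 11 to 14 gave 4 higher and 2 lower.

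**Figure D5:**
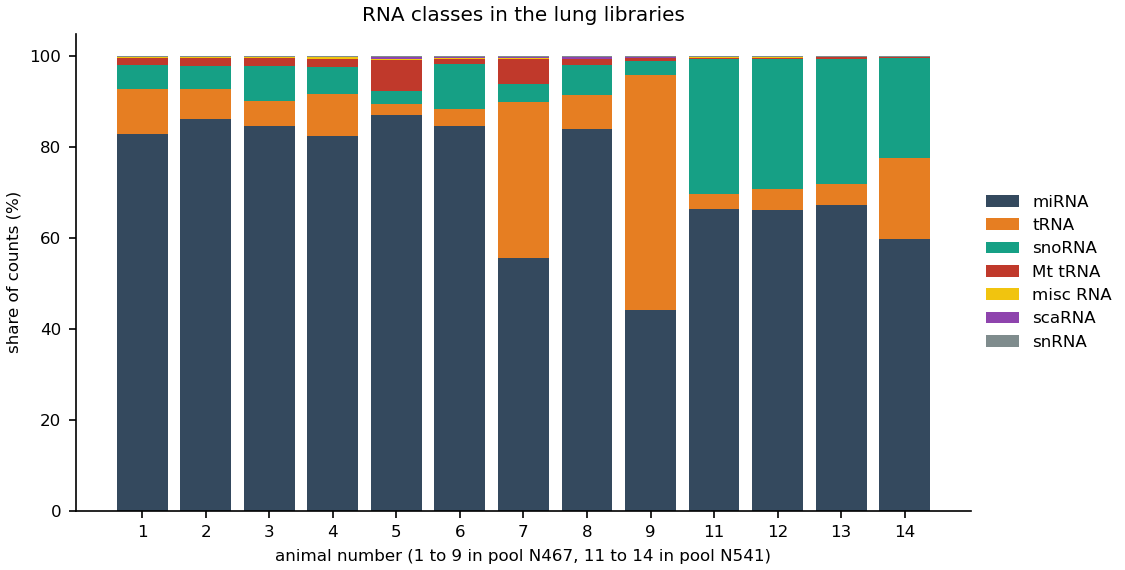
Share of counts by RNA class in each of the 13 lung libraries, in percent, stacked to 100. The 4 libraries of animals 11 to 14 have the larger snoRNA shares, 22.03 to 29.7%, and lung replicate 9 has the largest tRNA share, 51.7%.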

How the data were processed

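Small RNA was sequenced from whole organs. Per the labels' protocols, RNA came from tissue kept in RNAlater (Qiagen miRNeasy columns) and went into Illumina TruSeq small RNA libraries, which were gel-selected by size and sequenced on a NextSeq instrument. The unit deposited by the authors is raw counts per small RNA gene, with no normalization. The submitters' processing notes name STAR 2.5.1, featureCounts and the mm10/GRCm38 build. How strand and multiply mapped reads were handled is not given in the sources used here. This kit ligates adapters to RNA ends, so capture can differ between RNAs, and all levels are relative within a library.

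The table held 6114 genes, 2913 of them without a count in the libraries compared, and 9 of the listed samples were not analysed here. It has 3 further columns of testis that were not used. Names were matched to GENCODE M21 for 5682 genes. Counts were tested in edgeR 4.0.16 (R 4.3.3, limma 3.58.1) after filterByExpr by organ (minimum count 10) and TMM scaling, in a model of organ and pool with 118 residual degrees of freedom. Lung against the mean of 9 organs and against the mean of 4 organs within pool N467 were the comparisons, with means of log2 levels. Above each organ means the largest of 9 one-sided p-values, Benjamini-Hochberg adjusted over all genes, and a smallest difference of at least 1 (log2). Genes named are those above each organ, the 10 highest and 10 lowest fold changes among called genes with a mean of at least 10 CPM in lung (higher) or in the other organs (lower), the 10 most abundant in lung, and the list members. Genes of the tRNA class were left out of the ranking by fold change. The members and lists were chosen with earlier results of these data known. CPM is TMM-scaled unless called unscaled. Where an organ held no count (203 genes), no fitted fold is read as a bound, and floors are 3 counts over the organ. These floors cover counting error only. Alternatives were DESeq2 1.42.0, other scalings, no filter, microRNA genes only, a replicate block, single pools, and each lung library or organ left out. Scripts were tested on simulated data.

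Replicate numbers were read as animals, since the series describes 14 individuals. Deviations of lung libraries from their organ mean correlated with those of the same number in other organs with a median r of 0.0185, against -0.0371 for other numbers.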

Additional observations from a re-analysis of the deposited data

Results flagged for a closer look

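For 14 of 191 named genes, the difference of lung from liver, kidney, pancreas and spleen was not the same in pool N467 as in pool N541, by an interaction test in edgeR (Benjamini-Hochberg adjusted p below 0.05 and a difference of at least 1 on the log2 scale). Values are pool N467 minus pool N541, and the median over all genes was -1.49, so values near it are not apart from the rest. Mitochondrial tRNA genes gave -5.28 for mt-Tp, -2.26 for mt-Tl1, -1.19 for mt-Ts2 and 1.66 for mt-Te. The striated muscle microRNA genes gave -4.7 for Mir133a-2, -4.13 for Mir1a-2, -4.09 for Mir1a-1 and -2.0 for Mir133a-1. The 2 pancreas libraries of pool N541 held no count of Mir1a-1 or Mir133a-2, so these fitted differences are no bounds. The Mir1a copies differed by 0.27% and the Mir133a copies by 0.18% in total counts over all libraries. They cannot be told apart, so the gap between -4.7 and -2.0 is not read as a difference between copies. Snord49a gave -3.57, Mir125a -2.06 and Mir145a -1.11. In the other direction, Mir34a gave 2.01, Mirlet7b 1.29 and Mirlet7g 1.06.

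Without pancreas, 8 of the 14 were still called: mt-Tp, Mir133a-2, Snord49a, mt-Tl1, Mirlet7g, Mirlet7b, mt-Te and Mir34a. Sex, animal set and pool are the same split here and cannot be told apart.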

How the results depend on the processing

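Limits first. Pancreas was shallow, so genes absent there may lie under its depth, and pool N541 gave 4 lung libraries. Of the named genes, 73 of 198 kept direction and call in every setting against 9 organs and 91 of 182 within pool N467. With the replicate block, 218 genes were higher, 121 lower and 10 above each organ, and within pool N467 the paired fit gave 216 and 139. Leaving out each lung library gave 189 to 227 higher, 131 to 163 lower and 8 to 10 above each organ, and within pool N467 it gave 185 to 239 and 114 to 174. For a count that moved by over 1.5 times the cause was not tested, except that fewer genes or organs entered some fits.

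Against 9 organs, 386 genes were higher without the low-count filter, and with microRNA genes only 113 were higher, 82 lower and 1 below each organ. Pool N541 alone gave 57 lower and 2 above each organ. Without heart 70 were lower and 22 above each organ, without brain 17 were, without spleen 15, and with unscaled totals 5. Within pool N467, 362 were higher without the filter, microRNA genes only gave 120 higher and 58 lower, and the same organs in pool N541 gave 61 lower. The pool difference was called for 223 genes without pancreas.

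Called values changed sign as follows (log2 fold changes). With pool N541 alone against 9 organs, Mir21a was at -1.04, Mir34a at -1.53, Mir99a at -0.036 and mt-Te at -1.18. For the 5 organs in pool N541 in place of pool N467, values were 1.15 for Mir18b, 1.21 for Mir19a, -0.028 for Mir200a, 0.048 for Mir20b, -1.10 for Mir25, -0.22 for Mir27b, -0.20 for Mir301, 0.77 for Mir9-1, 1.13 for Mir9-3, -0.27 for Mir99a, -1.72 for mt-Ta, -0.59 for mt-Te, 0.71 for mt-Tl1, 4.64 for mt-Tp, -0.23 for mt-Tq and 3.14 for Snord49a. Within pool N467, an alternative chosen after seeing the data used index numbers 1 to 24 only and gave -1.28 for mt-Ta, -1.39 for mt-Tc, -0.12 for mt-Th, -1.02 for mt-Tn, -0.64 for mt-Tq, -0.38 for mt-Tr and -0.70 for mt-Ts1. With 25 to 48 only, Mir18b was at 0.75.

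Among class shares (percentage points, lung minus others), pool N541 alone gave -0.60 for tRNA, 0.0033 for miscellaneous RNA and 0.00059 for small nuclear RNA. Within pool N467, snoRNA was at -4.02 and miscellaneous RNA at 0.057. Under the replicate block, small Cajal body RNA was at -0.17 against the mean of the same animal's other organs (adjusted p = 0.00513, exact sign-flip test over 13 animals).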
